A study of Mus musculus with 8 samples.

Results

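Transcripts of 3 axon guidance genes, 1 cadherin gene and 1 cadherin-binding catenin gene are described here in mouse hippocampus with and without Jade2. They are the 7 transcripts, of 1679 in the deposited table, that carry the symbol Sema5a, Sema3e, Robo2, Cdh10 or Ctnnd1 or that are unnamed and share a locus with such a transcript. Of these, 5 are annotated transcripts and 2 are models merged by the authors' processing, 1 in the Sema5a locus and 1 in the Cdh10 locus. The tissue was hippocampus of 8-week-old C57BL/6 mice, with 4 libraries labelled wild type, called control here, and 4 labelled Jade2 knockout. Jade2 encodes a chromatin protein with PHD fingers that works in HBO1 histone acetyltransferase complexes. The labels give no allele, Cre driver or sex, and do not say whether each library came from a separate animal, so the SDs measure the spread between these libraries.

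Semaphorins, Slits and their receptors steer growing axons, mostly by repulsion. Semaphorins act through plexins, while Slit proteins act through Robo receptors. Classical cadherins hold neighbouring membranes together, and p120 catenin, the product of Ctnnd1, binds their cytoplasmic tail and keeps them at the cell surface. In hippocampus these families are known for laying out axon tracts and for shaping synapse number and synapse adhesion.

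The table holds only transcripts with an unadjusted p no higher than 0.0498 and a log2 fold change no smaller in size than 1.00 between knockout and control, as given in the authors' deposited table. The described transcripts were therefore chosen through this same contrast, and their differences are given as a description, with no test of this work. The adjusted p-values in the authors' deposited table imply 104721 transcripts, of which 1.60% are listed. Other transcripts of the same 5 genes were not analysed here, so no value below is a gene total. Abundance is read as FPKM, a level per transcript length, since Cuffdiff is the quantifier in the submitters' processing notes. The table names no unit and holds no counts, so depth and counting error are unknown. Median listed abundance was between 0.773 and 0.900 FPKM per library. In whole tissue, fewer cells of a type and less RNA per cell cannot be told apart.

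In the authors' deposited table the knockout was higher for 3 of the 7 and lower for 4, against 815 and 864 of all listed transcripts. By the authors' deposited table, Ctnnd1-228 alone among them passed an adjusted p of 0.05, as did 0.893% of all listed transcripts (0.536% higher and 0.357% lower in the knockout). The other 6 each had an adjusted p of 0.888 in the authors' deposited table. Knockout and control values did not overlap for 3 of the 7, namely Sema5a-204, the merged Cdh10 model and Ctnnd1-228, against 36.1% of all listed transcripts (19.7% higher and 16.4% lower in the knockout). These shares are background for a contrast that chose the members, and nothing is read from them. Median absolute log2 fold change in the authors' deposited table was 5.03 for the 7 and 2.69 for the table. Both medians are of the statistic that selected the transcripts, and nothing is read from them. At least 1 library was listed at 0 for 4 of the 7 and for 41.2% of the table.

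The targeted gene was looked at first. The annotated Jade2 transcript ENSMUST00000109091 was listed at 0 in all 4 knockout libraries and between 1.41 and 5.05 FPKM in the controls. The merged model MERGE.3721.8 of the same locus was at 1.79 to 11.8 FPKM in the controls and listed at 0 in the knockouts, except for 0.00225 FPKM in replicate 4. A further 3 merged Jade2 models went the other way, with every control listed at 0 and the knockouts between 0.501 and 12.3 FPKM. The locus was thus not silent in the knockouts, and the sources used here do not give the exons of these models.

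What the listed isoforms are matters for reading their levels. All 5 annotated ones had the same mm10 coordinates in the table as in GENCODE M21 (GRCm38). Of these, 3 have no annotated reading frame: Sema5a-204 and Sema3e-202 are of the retained intron class and Ctnnd1-228 is of the processed transcript class. Of the 1136 listed transcripts found in the annotation, 18.1% were of the retained intron class and 7.04% were processed transcripts. Cdh10-201 and Robo2-202 are protein coding, as were 62.3% of the listed transcripts found in the annotation. Each was set beside the coding transcript of its gene with which it shares most exons.

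**Figure D1:**
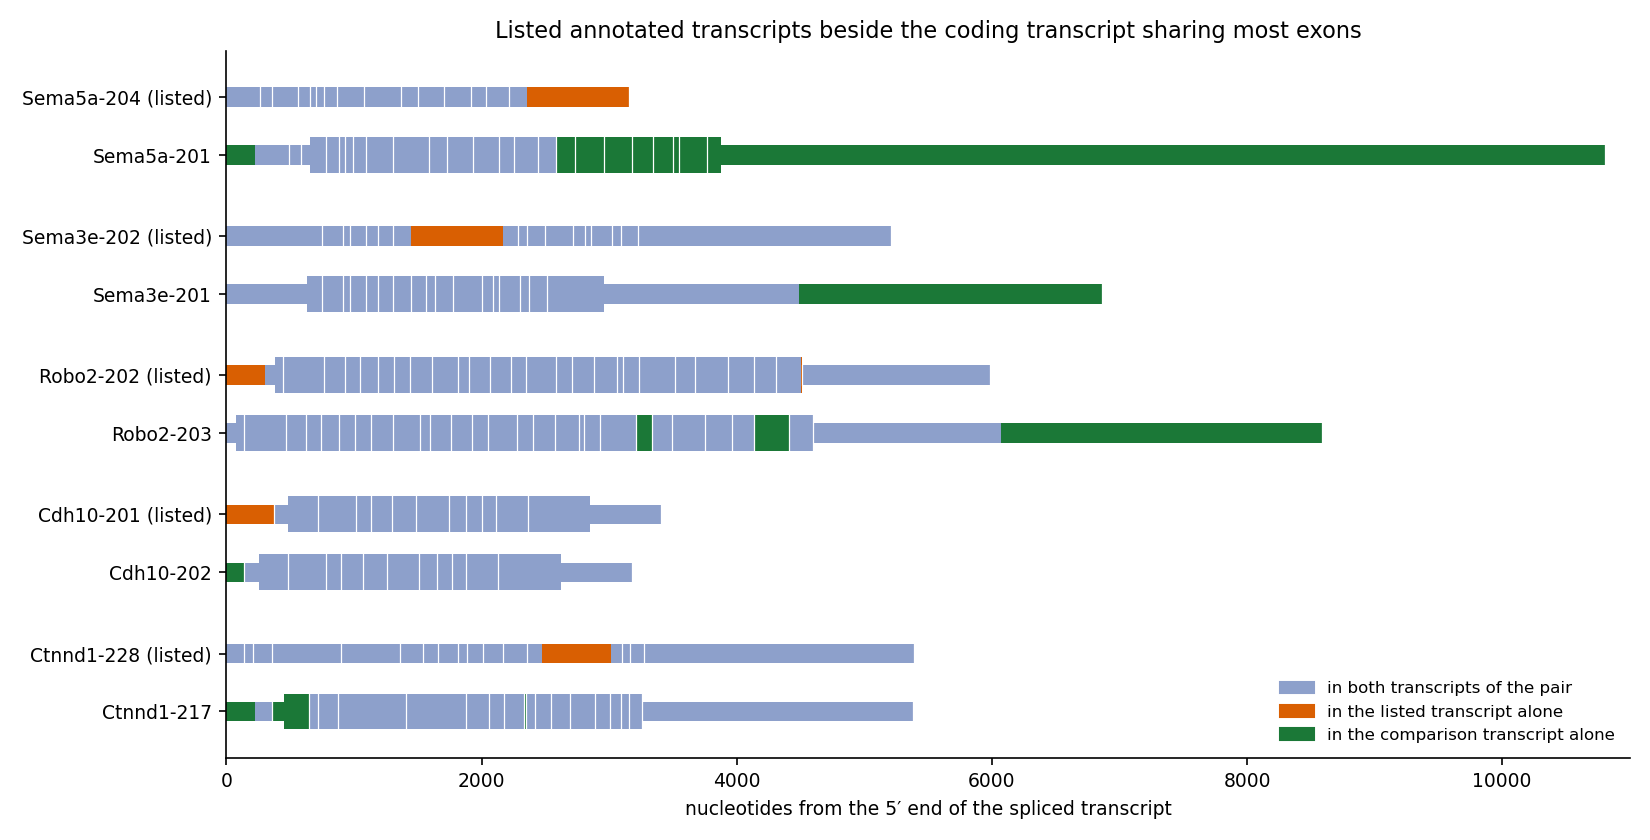
Exon maps of the 5 listed annotated transcripts, each above the coding transcript of the same gene that shares most exons, against nucleotides from the 5′ end of the spliced transcript. Tall boxes are coding and low boxes are not, white lines mark exon ends, and colour marks sequence that is in both transcripts of a pair or in 1 of them. Orange blocks are the 800 intron bases at the end of Sema5a-204, the introns kept in Sema3e-202 (720 bases) and Ctnnd1-228 (543 bases), sequence at the 5′ ends of Robo2-202 and Cdh10-201, and a few bases at the end of the Robo2-202 reading frame.

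The noncoding isoforms are told from their coding partners by intron sequence, so those junctions are shown. Sequences are from the GENCODE M21 transcripts on GRCm38, 5′ to 3′, with 30 bases of exon in lower case and 60 bases of intron in capitals. They are chr5:14225666-14225755 and chr5:14226356-14226445 (plus strand) for Sema3e, chr2:84608900-84608989 and chr2:84608387-84608476 (minus strand) for Ctnnd1, and chr15:32631368-32631457 (plus strand) for Sema5a.
Sema3e-202, 5′ end of the kept intron: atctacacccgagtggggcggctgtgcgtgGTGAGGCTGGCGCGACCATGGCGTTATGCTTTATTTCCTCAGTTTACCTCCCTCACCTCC
Sema3e-202, 3′ end of the kept intron: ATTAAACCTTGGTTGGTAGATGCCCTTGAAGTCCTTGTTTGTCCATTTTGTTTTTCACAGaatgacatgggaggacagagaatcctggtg
Ctnnd1-228, 5′ end of the kept intron: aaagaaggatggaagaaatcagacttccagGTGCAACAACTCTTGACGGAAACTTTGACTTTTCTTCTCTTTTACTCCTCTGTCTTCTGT
Ctnnd1-228, 3′ end of the kept intron: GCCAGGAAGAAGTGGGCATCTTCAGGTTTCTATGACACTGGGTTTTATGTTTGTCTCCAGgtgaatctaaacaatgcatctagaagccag
Sema5a-204, start of its last intron stretch: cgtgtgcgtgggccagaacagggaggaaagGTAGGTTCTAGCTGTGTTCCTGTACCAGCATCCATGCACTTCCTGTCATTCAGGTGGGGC

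The 3 intron stretches begin with GT, and the 2 that are kept whole end with AG. Carried on from the coding partner, the reading frame met a stop codon within the intron sequence in each. The stop was TAG, ending 4 bases into the intron, in Sema5a-204, TAA, ending at base 69, in Ctnnd1-228, and TGA, ending at base 318, in Sema3e-202. In the coding partner, 641 whole codons of the 1074 of Sema5a-201, 271 of the 775 of Sema3e-201 and 850 of the 938 of Ctnnd1-217 lie before the intron. Ctnnd1-228 also lacks the exon that holds the start codon of Ctnnd1-217. These are properties of the annotation and were not measured in the libraries.

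Sema5a encodes a transmembrane semaphorin with thrombospondin repeats, known in the dentate gyrus for limiting synapse number on granule cells. Both of its listed transcripts had higher means in the knockout. Sema5a-204 (ENSMUST00000227802, chromosome 15, 32245038 to 32632197, plus strand, retained intron, 15 exons) stood at 1.23, 0.581, 0.960 and 0.764 FPKM in control replicates 1 to 4. In knockout replicates 1 to 4 it stood at 1.72, 3.33, 1.42 and 1.40 FPKM. Every knockout library was above every control, by a narrow margin between knockout replicate 4 and control replicate 1. The means were 1.97 ± 0.918 and 0.884 ± 0.279 FPKM (SD, n = 4 per group), a ratio of 2.23. This transcript was the one closest to the listing limit on fold change, with a log2 fold change of 1.04 in the authors' deposited table.

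The merged Sema5a model MERGE.8714.11 (chromosome 15, 32245719 to 32696331) was the most abundant of the 7. Its start lies 420 bases past the end of the first exon of the coding Sema5a-201, and its end lies 10 bases short of the end of Sema5a-201. The sources used here do not give its exons, so whether it holds the coding sequence is unknown. It stood at 6.33, 0.314, 0.119 and 0.0252 FPKM in control replicates 1 to 4, and at 3.52, 18.8, 7.75 and 12.3 FPKM in knockout replicates 1 to 4. The groups overlapped through control replicate 1, which was above knockout replicate 1 and far above the other controls.

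The mean of this model was 10.6 ± 6.53 FPKM over the knockouts and 1.70 ± 3.09 FPKM over the controls (SD, n = 4 in each), a ratio of 6.24. Without control replicate 1 the control mean was 0.153 FPKM and the ratio 69.3. On the log2(FPKM + 0.5) scale the model was higher by 3.04 (SE 0.989) with all libraries and by 3.89 without control replicate 1. The log2 fold change in the authors' deposited table is 4.93, with an unadjusted p of 0.00784.

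Summed, the listed Sema5a transcripts reached 5.24, 22.1, 9.17 and 13.7 FPKM in knockout replicates 1 to 4 and 7.56, 0.895, 1.08 and 0.789 FPKM in control replicates 1 to 4. The sum was thus high in every knockout and in 1 control. The merged model made up 67.2% to 89.8% of it in the knockouts, 83.7% in control replicate 1 and 3.20% to 35.1% in the other controls. Control replicate 1 therefore resembled the knockouts in the division between the listed Sema5a isoforms and in their sum, both through its merged model value. Its Sema5a-204 value, 1.23 FPKM, was below every knockout. The ratio of mean sums was 4.87, and 13.6 without control replicate 1.

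**Figure D2:**
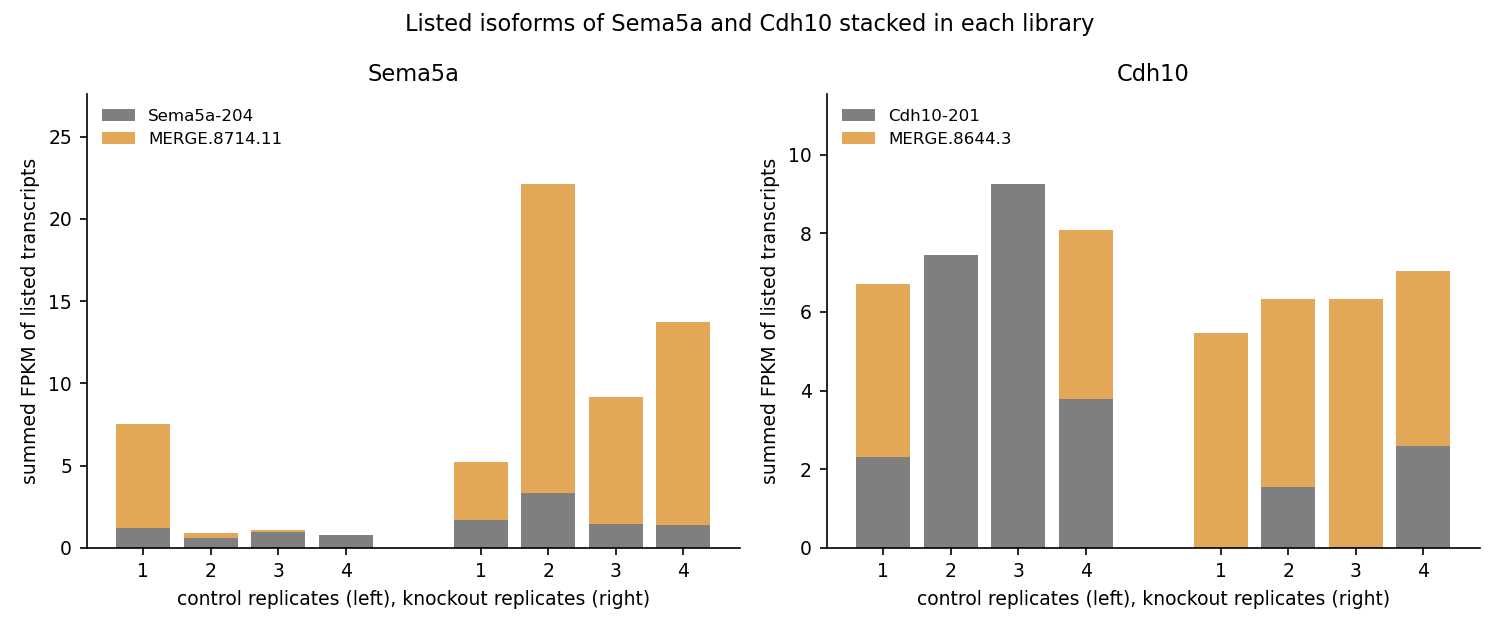
Listed transcripts of Sema5a (left) and Cdh10 (right) stacked in each library, in summed FPKM on a linear axis from 0, with control replicates on the left and knockout replicates on the right of each panel. The Sema5a sum is above 5 FPKM in the 4 knockouts and in control replicate 1, while the Cdh10 sum lies between 5.47 and 9.24 FPKM in all 8 libraries with different shares of its 2 transcripts.

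Sema3e encodes a secreted semaphorin whose receptor is plexin D1. Its listed transcript is Sema3e-202 (ENSMUST00000130116, chromosome 5, 14025276 to 14254314, plus strand, retained intron, 16 exons), the lowest in abundance of the 7. It stood at 0.870, 0.459, 0.0427 and 0.921 FPKM in control replicates 1 to 4. In knockout replicates 1 to 4 it stood at 0.0532, 0.0133, 0 and 0.0156 FPKM.

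The knockouts were all near 0 for Sema3e-202, and so was control replicate 3, which was below knockout replicate 1, so the groups overlapped. On the log2(FPKM + 0.5) scale the knockout was lower, at -0.95 (SE 0.323, n = 4 per group). The log2 fold change in the authors' deposited table is -5.03, with an unadjusted p of 0.0293. The coding Sema3e-201 is not among the listed transcripts and was not analysed here.

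Robo2 encodes a Slit receptor of the immunoglobulin superfamily that mediates axon repulsion. The listed Robo2-202 (ENSMUST00000117200, chromosome 16, 73894355 to 74411292, minus strand, protein coding, 26 exons) codes for 1377 codons, against 1508 in Robo2-203. Robo2-202 lacks 2 whole coding exons of Robo2-203, of 126 and 273 bases, both a multiple of 3, and its reading frame ends in a few bases that are not in Robo2-203. The shorter, exon 21 of Robo2-203 (GRCm38, chr16:73933046-73933171, minus strand), is shown because it tells the listed isoform from its coding partner, in capitals between 15 bases of each neighbouring exon.
Robo2-203 exon 21: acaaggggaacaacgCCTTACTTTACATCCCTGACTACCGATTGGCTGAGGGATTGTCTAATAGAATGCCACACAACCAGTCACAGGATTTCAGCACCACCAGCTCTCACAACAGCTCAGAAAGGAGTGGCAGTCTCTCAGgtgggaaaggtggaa

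Robo2-202 stood at 0.872, 0.969, 1.25 and 1.68 FPKM in control replicates 1 to 4. In knockout replicates 1 to 4 it stood at 0.00231, 0, 1.33 and 0.848 FPKM. The knockouts were split, with replicates 1 and 2 at or near 0, replicate 3 inside the control range and replicate 4 just under the lowest control.

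On the log2(FPKM + 0.5) scale Robo2-202 was lower in the knockout, at -0.91 (SE 0.507, n = 4 per group). Without knockout replicate 3 the difference was -1.26. The log2 fold change in the authors' deposited table is -4.66, with an unadjusted p of 0.0376, the largest p of the 7. The log2 ratio of the group means was smaller, -1.13.

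Cdh10 encodes cadherin 10, a type II classical cadherin that mediates adhesion between neurons. It is the member gene with listed isoforms in opposite directions. The annotated Cdh10-201 (ENSMUST00000040562, chromosome 15, 18820329 to 19014236, plus strand, protein coding, 12 exons) has the same coding sequence of 788 codons as Cdh10-202 and differs from it in the first exon, which is noncoding. The merged model MERGE.8644.3 (chromosome 15, 18818977 to 19014172) begins 1352 bases before Cdh10-201 and 30 bases after the start of Cdh10-202. Its start is identical to that of the annotated retained-intron transcript Cdh10-205.

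The 250 bases before the start of Cdh10-201 are shown because the listed Cdh10 transcripts have different start sites. The merged model also ends 64 bases before Cdh10-201, and the sources used here do not give its exons, so where else they differ is unknown. The sequence is from RefSeq on GRCm38.p6 (chr15:18820079-18820328, plus strand), with no capitals as no motif was searched.
Cdh10-201, upstream of the start: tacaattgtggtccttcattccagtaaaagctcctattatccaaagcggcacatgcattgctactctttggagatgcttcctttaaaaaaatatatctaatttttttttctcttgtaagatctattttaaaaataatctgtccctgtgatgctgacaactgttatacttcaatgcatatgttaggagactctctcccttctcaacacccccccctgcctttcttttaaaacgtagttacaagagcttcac
Its GC content is 36.8% with 2 CG dinucleotides, and 6.74% of 32851 RefSeq promoters have a lower GC content over the same 250 bases. The median over those promoters is 52.4%. All 5 genes matched this table. The window before the coding Sema5a-201 is at 72.0% and that before Sema3e-202 at 48.0%.

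Cdh10-201 stood at 2.30, 7.45, 9.24 and 3.78 FPKM in control replicates 1 to 4. In knockout replicates 1 to 4 it stood at 0, 1.54, 0.0242 and 2.60 FPKM. The controls ran higher, but knockout replicate 4 was above control replicate 1, so the groups overlapped. The merged model stood at 4.41, 0, 0 and 4.32 FPKM in control replicates 1 to 4. It stood at 5.47, 4.78, 6.31 and 4.45 FPKM in the knockout replicates. Every knockout was above every control for the merged model, but control replicates 1 and 4 were only just below knockout replicate 4, while control replicates 2 and 3 were listed at 0.

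On the log2(FPKM + 0.5) scale Cdh10-201 was lower in the knockout, at -2.28 (SE 0.791), and the merged model higher, at 1.87 (SE 0.953, n = 4 per group). The log2 fold changes in the authors' deposited table are -5.40 and 5.86, with unadjusted p-values of 0.0196 and 0.0276. The log2 ratio of group means was smaller for both, -2.45 for Cdh10-201 and 1.27 for the merged model.

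The sum of the listed Cdh10 transcripts was somewhat lower in the knockout, by less than Cdh10-201 alone. It stood at 6.71, 7.45, 9.24 and 8.09 FPKM in control replicates 1 to 4 and at 5.47, 6.32, 6.34 and 7.05 FPKM in knockout replicates 1 to 4. The means were 7.87 ± 1.07 and 6.29 ± 0.643 FPKM (SD, n = 4 per group), and the difference was -0.30 (SE 0.115) on the log2(FPKM + 0.5) scale. Knockout replicate 4 was above control replicate 1, and the other knockouts were below every control. The merged model made up 63.1% to 100% of the sum in the knockouts. It made up 65.7% and 53.3% in control replicates 1 and 4 and 0% in replicates 2 and 3. Of the 214 loci with 2 or more listed transcripts, 138 (64.5%) held both directions, so opposite directions within a locus were usual in this table.

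Ctnnd1 encodes p120 catenin. Its listed transcript fell to near 0 in every knockout library. Ctnnd1-228 (ENSMUST00000145312, chromosome 2, 84600783 to 84650540, minus strand, processed transcript, 16 exons) is 1 of 30 annotated Ctnnd1 transcripts, and the coding ones are not among the listed transcripts. It stood at 1.50, 1.30, 1.23 and 1.70 FPKM in control replicates 1 to 4. In knockout replicates 1 to 4 it stood at 0.0411, 0.0232, 0.0382 and 0.0326 FPKM.

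The groups were far apart for Ctnnd1-228, and the spread within each was small. The means were 0.0338 ± 0.00791 and 1.43 ± 0.209 FPKM (SD, n = 4 per group), with a control mean 42.5 times the knockout mean. Leaving out any 1 library gave between 38.4 and 45.8 times. The log2 fold change in the authors' deposited table is -5.46, with an unadjusted p of 2.67e-07 and an adjusted p of 0.00466. On the log2(FPKM + 0.5) scale the difference was smaller, -1.85 (SE 0.0780), because the pseudocount exceeds the knockout values.

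**Figure D3:**
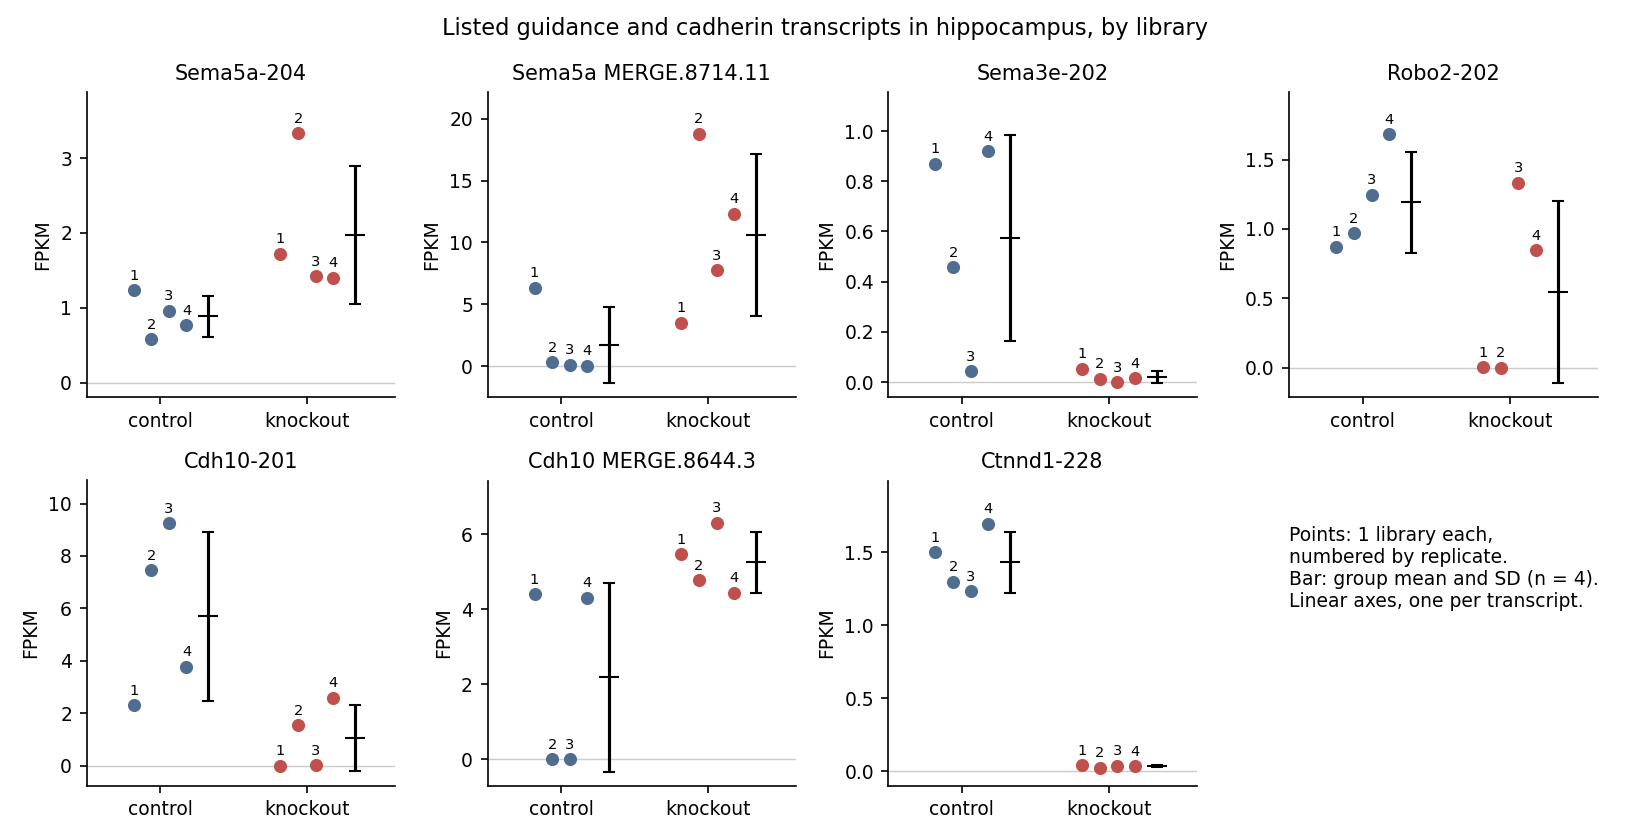
Abundance of the 7 listed transcripts in each library, in FPKM on a linear axis of its own per transcript, with control libraries on the left and knockout libraries on the right of each panel, numbered by replicate, and bars for the mean and SD (n = 4), which can reach below 0. Ctnnd1-228 is at 1.23 FPKM or above in the controls and at 0.0411 FPKM or below in the knockouts. Robo2-202, Sema3e-202, Cdh10-201 and the merged Sema5a model overlap between the groups. The merged Cdh10 model does not, but its highest control, at 4.41 FPKM, is just below its lowest knockout, at 4.45 FPKM.

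Set by set, the libraries did not divide the same way in each locus. Control replicate 1 was on the knockout side for the merged Sema5a model, and control replicate 3 for Sema3e-202. For the merged Cdh10 model, control replicates 1 and 4 were just below every knockout. For Cdh10-201, knockout replicate 4 was above control replicate 1. Knockout replicates 3 and 4 were on or near the control side for Robo2-202. Over the whole table the share of transcripts at 0 was alike across libraries, with 165 to 196 of 1679 at 0 in each.

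Listed transcripts of other loci with the most similar pattern across the 8 libraries were found by the root mean square distance between centred log2(FPKM + 0.5) values, among 864 to 865 transcripts that carry a gene symbol and average 0.5 FPKM or more over the 8 libraries. The nearest to the merged Sema5a model was a B3gnt2 transcript, at a distance of 0.43 where the median was 2.13. It too was high in the knockouts and in control replicate 1, at 6.04 FPKM, and at or under 0.0441 FPKM in the other controls. The next was a Zdhhc6 transcript, at 0.79.

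Nearest to the merged Cdh10 model were transcripts of Col1a2 and Mlycd, both at 0.43 where the median was 1.69. The Col1a2 transcript, of a fibrillar collagen chain, was also listed at 0 in control replicates 2 and 3. Nearest to Robo2-202 were Cbx2 at 0.21 and Eif4a2 at 0.24, where the median was 1.12, both listed at 0 in knockout replicates 1 and 2. Nearest to Ctnnd1-228 were Hdlbp at 0.155 and Fermt3 at 0.29, where the median was 1.28, and nearest to Sema3e-202 were 1700003E16Rik at 0.22 and Slc46a3 at 0.24, where the median was 1.02. Since every listed transcript was selected on the same contrast, a small distance between any of them is partly set by that selection.

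The wider pathways were looked at through 10 lists of guidance, cadherin and catenin genes. Of their 161 genes 10 had a listed transcript, the described genes among them, and the whole table held 1404 loci. The share of all genes with a listed transcript was not computed, so nothing is read from this count. There were 15 transcripts in all, 6 higher and 9 lower in the authors' deposited table. Without the 7 described transcripts there were 8, of which 3 were higher and 5 lower. Ctnnd1-228 was the 1 that passed an adjusted p of 0.05 there, so none of the 8 others did. The median log2 fold change was -1.67 against -1.04 over the whole table. That median includes the described transcripts, which were chosen through this contrast, and nothing is read from it. The lists of plexins and neuropilins, netrins and their receptors, ephrins and Eph receptors, non-clustered protocadherins and seven-pass and giant cadherins, 68 genes together, had no listed transcript. Among 20 semaphorins Sema5a and Sema3e were listed, and among 19 classical cadherins with Cdh13 only Cdh10 was.

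On the Slit and Robo side, 3 transcripts of Srgap2, a GTPase-activating protein that binds Robo receptors, were listed, 2 lower and 1 higher. Srgap2 ENSMUST00000185596 had a knockout mean of 1.61 ± 1.40 FPKM and a control mean of 4.84 ± 0.848 FPKM (SD, n = 4 in each), with no overlap. Srgap2 ENSMUST00000097588 averaged 4.48 ± 3.05 and 0.942 ± 0.0936 FPKM in the same order, with knockout replicate 2 below every control. Srgap2 ENSMUST00000187042 averaged 0.287 ± 0.221 and 0.670 ± 0.279 FPKM, with overlap. None of the 3 passed an adjusted p of 0.05 in the authors' deposited table. Among 23 cytoplasmic effectors only Dpysl4, of the collapsin response mediator family, was listed, with a knockout mean of 3.73 ± 2.45 FPKM and a control mean of 9.16 ± 3.05 FPKM (SD, n = 4 in each) and with overlap.

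Beside Ctnnd1, the list of 21 catenins and junction partners had 2 transcripts higher and 2 lower. Arvcf ENSMUST00000115610, of a p120-related catenin, had a knockout mean of 4.43 ± 1.31 FPKM and a control mean of 1.61 ± 1.19 FPKM (SD, n = 4 in each), and every knockout was above every control. Knockout replicate 2, at 2.80 FPKM, was close to control replicate 1, at 2.71 FPKM. Pkp4, a further armadillo protein of this family, had transcripts in both directions. The merged Pkp4 model MERGE.13645.15 averaged 10.8 ± 10.4 FPKM in knockout libraries and 33.2 ± 17.1 FPKM in controls, with overlap, while ENSMUST00000183625 was listed at 0 in control replicates 1 and 2 and stood between 0.486 and 0.929 FPKM in the knockouts. The fourth, outside the naming rule, was Ctnnb1 ENSMUST00000126633, of beta catenin, at 0.294 ± 0.318 FPKM in knockout libraries and 0.647 ± 0.229 FPKM in controls, with overlap.

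**Figure D4:**
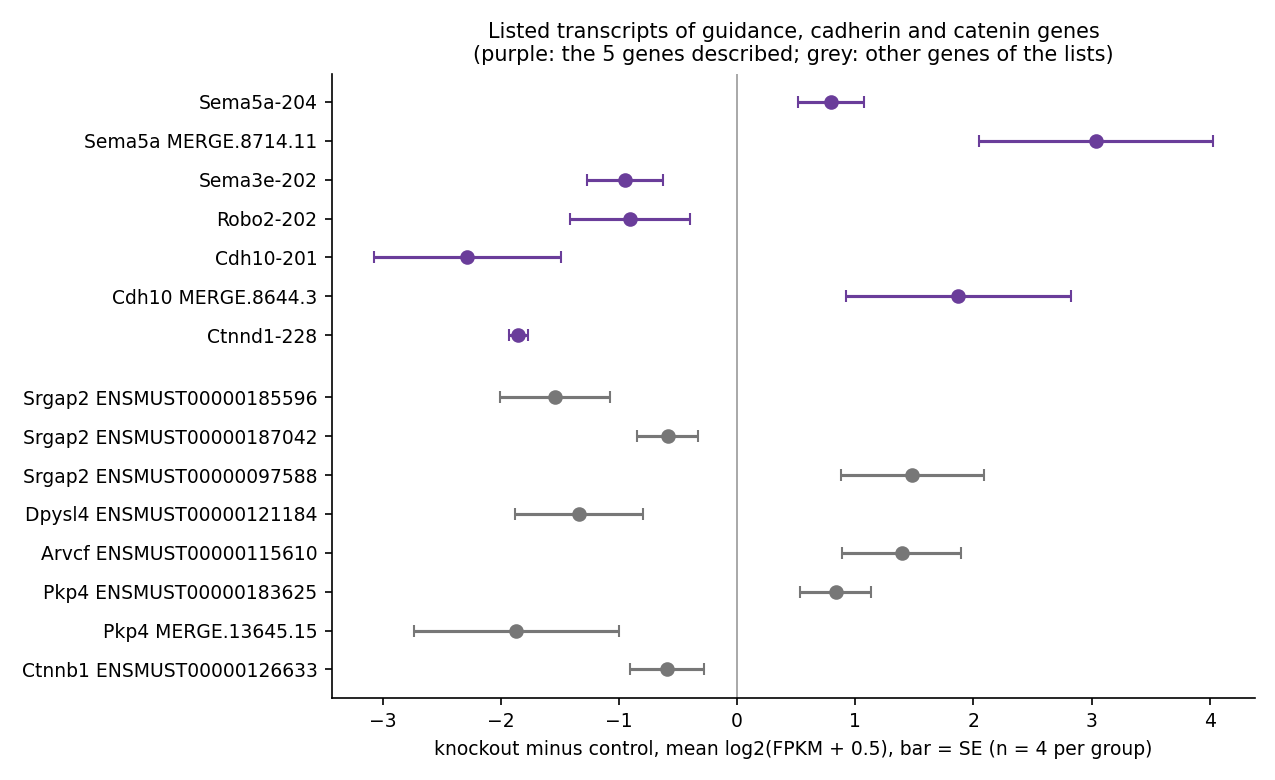
Difference between knockout and control in mean log2(FPKM + 0.5) for the 7 described transcripts (purple) and the 8 other listed transcripts of the guidance, cadherin and catenin lists (grey), with the SE as bars (n = 4 per group). Positive values are higher in the knockout. Sema5a transcripts lie to the right, Sema3e, Robo2 and Ctnnd1 transcripts to the left, and Cdh10, Srgap2 and Pkp4 have transcripts on both sides.

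Markers of the cell types and neighbouring regions that a hippocampal dissection can hold were listed in both directions. Of 72 marker genes in 16 lists, 12 had a listed transcript, 15 transcripts in all. Of these, 8 were higher and 7 lower, against 48.5% and 51.5% of all listed transcripts. None passed an adjusted p of 0.05 in the authors' deposited table, where 0.893% of all listed transcripts did. The groups did not overlap for 6 of the 15, against 36.1% of all listed transcripts. The markers were listed through the same contrast, and nothing is read from these counts. Excitatory neuron, CA3, granule cell, interneuron, astrocyte, and choroid plexus and ependyma markers had no listed transcript, so the tissue label could not be checked against them. The marker values that follow are of the listed transcripts alone, and none is a gene total. Of 4 mural cell markers Acta2 and Tagln were listed, and their sum was 6.61 to 9.27 FPKM in the knockouts and 1.48 to 4.51 FPKM in the controls. Of 4 oligodendrocyte precursor markers Lhfpl3 was listed, at 0.572 to 2.04 FPKM in the knockouts and 0.00839 to 0.0520 FPKM in the controls. Of 6 oligodendrocyte markers Mag was listed, at 0.619 to 2.42 and 2.53 to 2.97 FPKM, and of 4 thalamic markers Prkcd, at 7.66 to 30.3 and 4.54 to 6.57 FPKM. Of 4 meningeal markers Col1a2 was listed, at 2.32 to 4.03 FPKM in the knockouts and up to 2.84 FPKM in the controls, 2 of them at 0. The groups overlapped for Col1a2. Sums of the remaining lists overlapped as well. They ran from 48.8 to 80.5 FPKM in knockouts and 15.2 to 81.0 FPKM in controls for CA1 (Mpped1, 1 of 4), from 0 to 1.24 and 0.166 to 1.46 FPKM for Cajal-Retzius cells (Trp73, 1 of 4) and from 0.0140 to 1.57 and 1.19 to 21.3 FPKM for microglia (Csf1r, 1 of 5). For endothelium (Ly6c1, 1 of 4) they ran from 3.18 to 10.5 and 0.0483 to 6.87 FPKM, and for neocortex and subiculum (Lamp5 and Nts, 2 of 5) from 5.26 to 22.3 and 7.02 to 13.4 FPKM. This last sum hides both directions, as 4 of its 5 transcripts were lower in the knockout. The 1 higher was Lamp5 ENSMUST00000057503, with a knockout mean of 14.4 and a control mean of 3.07 FPKM. The part of these markers in the values of the guidance and cadherin transcripts was not tested.

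The sources used here do not say whether quantification used strand, so genes that overlap the loci bear on the levels. In GENCODE M21 no gene overlaps Cdh10, 1 antisense gene overlaps Sema5a, 3 genes overlap Sema3e (1 of them antisense), 7 small RNA, pseudogene or unclassified genes overlap Robo2, and the protein-coding Gm28635 overlaps Ctnnd1 on the same strand. Reads in the shared stretches cannot be told apart by gene in these values.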

How the data were processed

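Hippocampal RNA of 4 control and 4 Jade2-knockout libraries was analysed from 1 deposited table. Alignment with HISAT2 to mm10 and quantification with Cuffdiff are named, without versions, per the submitters' processing notes. The authors' deposited abundances carry no unit and were read as FPKM. The table also holds the authors' log2 fold changes and p-values, whose test the sources used here do not state. Depth is unknown.

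Rows were assigned to loci by symbol or, for unnamed merged models, by the authors' locus identifier. Means, SDs and differences of mean log2(FPKM + 0.5) with their SE were computed. No test was run, because the table was selected on the same contrast. The members, lists and rules were chosen with earlier results of these data known. Named are all member transcripts, up to 3 others per pathway list by the authors' p, and the 2 nearest patterns per locus. Structures came from GENCODE M21, in which 5 of 5 annotated members had identical coordinates, as had 1118 of 1138 listed Ensembl transcripts. Promoter sequence came from RefSeq. The difference and overlap computations were tested on simulated data without zeros and without a pseudocount. The other computations were not tested in this way. Python 3.11.15, numpy 2.4.6, pandas 2.3.3 and matplotlib 3.10.9 were used.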

Additional observations from a re-analysis of the deposited data

Results flagged for a closer look

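In 2 of 14 groups of 4 libraries, 1 library lay apart from the other 3 by a gap above Dixon's critical value. For normally distributed values chance flags about 1 in 20 groups. These FPKM values were not checked for that shape and come from selected transcripts, so their own rate is unknown. For the merged Sema5a model MERGE.8714.11, control replicate 1 was at 6.33 FPKM, with a gap of 0.954 of the control range. For Sema5a-204, knockout replicate 2 was at 3.33 FPKM, with a gap of 0.835 of the knockout range, and without it the ratio of means was 1.71 in place of 2.23.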

How the results depend on the processing

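In 134 of 142 recomputed values the difference moved by less than the spread between libraries, or a count stayed within 1.5 times, and no direction reversed. Some of the 134 could not move. A replicate block leaves each mean difference as it is, and the filter on a mean of at least 1 FPKM left the same rows wherever it gave a difference. With a pseudocount of 0.1 the log2 difference was -3.51 for Ctnnd1-228, -1.87 for Robo2-202 and -2.15 for Sema3e-202, and with a pseudocount of 1 it was -1.23 for Ctnnd1-228, shifts that follow from values near or under the pseudocount. With rows joined by symbol, which drops the merged models, the difference of the Sema5a sum was 0.79 in place of 2.40 and that of the Cdh10 sum -2.28 in place of -0.30. The number of transcripts without overlap was 3 to 5 when 1 library was left out, with 5 without knockout replicate 1 or control replicate 1, while 44.6% to 47.3% of the whole table had none. With 1 library left out, the log2 difference was 2.66 to 3.89 for the merged Sema5a model, 0.56 to 0.91 for Sema5a-204, -1.24 to -0.78 for Sema3e-202, -1.26 to -0.63 for Robo2-202, -2.76 to -1.89 for Cdh10-201, 1.33 to 2.42 for the merged Cdh10 model, -1.90 to -1.79 for Ctnnd1-228, 2.08 to 3.03 for the Sema5a sum and -0.37 to -0.22 for the Cdh10 sum. The share held by the merged model was then 38.3 to 65.2 percentage points higher in the knockout for Sema5a and 44.9 to 66.8 for Cdh10. Ratios of means that moved by over 1.5 times were, besides Sema5a without control replicate 1, Cdh10-201 (control 10.9 in place of 5.47 times the knockout without knockout replicate 4), the merged Cdh10 model (3.65 in place of 2.41 without control replicate 1), Robo2-202 (4.21 in place of 2.19 without knockout replicate 3) and Sema3e-202 (59.5 in place of 27.9 without knockout replicate 1). A mean of at least 1 FPKM kept 4 of the 7 transcripts and left no value for Ctnnd1-228, Robo2-202 and Sema3e-202.

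The libraries share replicate numbers, and deviations of same-numbered libraries correlated at -0.030 to 0.036. Such correlations, over transcripts selected on this contrast, cannot settle whether the numbers mark pairs. The differences above treat the libraries as unpaired. A replicate block leaves each mean difference as it is, 2.40 for the Sema5a sum and -0.30 for the Cdh10 sum. The SE was 1.01 and 0.0732 in the paired form, against 0.757 and 0.115 in the unpaired form.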
